A study of Mus musculus with 18 samples.

Results

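The comparison described here follows inguinal fat of tumour-bearing mice from day 7 to day 21. All genes were compared between the 5 LLC libraries of day 21 and the 5 LLC libraries of day 7, so 10 of the 18 libraries of the series carry it. LLC, Lewis lung carcinoma, is a mouse lung tumour line that grows under the skin of C57BL/6 mice. The mice were male C57BL/6J animals given LLC cells subcutaneously and sampled at day 7, which the labels call pre-cachexia, or at day 21, which they call cachexia. The 8 other libraries come from males of the same strain given phosphate-buffered saline (PBS) in place of cells, 4 at each day. All 4 groups share the injection and the depot, and the labels name no engineered allele. The sources used here give neither the age of the mice nor tumour or body weights, and they do not say whether a numbered sample is 1 animal, so the tests see only the spread among the samples as labelled, which may be technical in part. Within LLC, tumour growth, the passing of 2 weeks and any difference in handling between the days cannot be told apart. Values of the PBS libraries therefore stand beside many of the results, in places with a test of the difference between the day effects.

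Inguinal fat is a subcutaneous white depot. Its adipocytes store triglyceride, release fatty acids by lipolysis and secrete hormones such as leptin and adiponectin. Under cold or adrenergic signals some of them become beige, that is, they express the uncoupling protein of brown fat and produce heat. Cachexia is a wasting of fat and muscle that accompanies many tumours, and in mouse models loss of white fat by lipolysis, beige conversion and inflammation have been described in its course. Mature adipocytes lie among progenitors, fibroblasts, macrophages, vessels and nerves, and the depot holds a lymph node and lies against skin and muscle, so its RNA is a mixture. In such a mixture fewer cells of a type and less RNA per cell cannot be told apart.

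The LLC libraries held 14566155 to 18969387 counts each. Levels below are CPM, counts scaled to a common library size, and log2 fold changes are day 21 over day 7. All 26 mature adipocyte markers were tested and together made up 39004 to 51426 CPM at day 7 and 32749 to 74917 CPM at day 21, so adipocyte RNA was present in every library. Adipoq, which encodes adiponectin, measured 2186, 2114, 2058, 1742 and 2198 CPM at day 7 and 1205, 2380.2, 1862, 3229 and 2853 CPM at day 21. Library 1 of day 21 was the lowest and library 4 the highest of the 10, and the groups overlapped (log2 fold change 0.17 ± 0.25, SE, edgeR adjusted p = 0.792; errors of log2 fold changes are SE throughout).

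The day 21 libraries differed among themselves more than those of day 7. Of 13480 genes tested, 11299 (83.8%) had the larger SD of log2(CPM + 1) at day 21, and the median SD over genes was 0.166 at day 7 and 0.306 at day 21 in LLC, against 0.149 and 0.202 in PBS. Day 7 libraries lay on the first principal component (31.6% of the variance) between -25.1 and -5.10, and day 21 libraries between -53.6 (library 1) and 63.8 (library 4). On the second, 22.5% of the variance, day 21 library 3 lay at -77.9 and the other 9 between -12.2 and 21.5. Day 21 library 1 was high in cell cycle genes, day 21 library 3 in B cell and lymph node genes, and day 7 library 3 and day 21 libraries 2 and 5 in skeletal muscle genes.

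**Figure D1:**
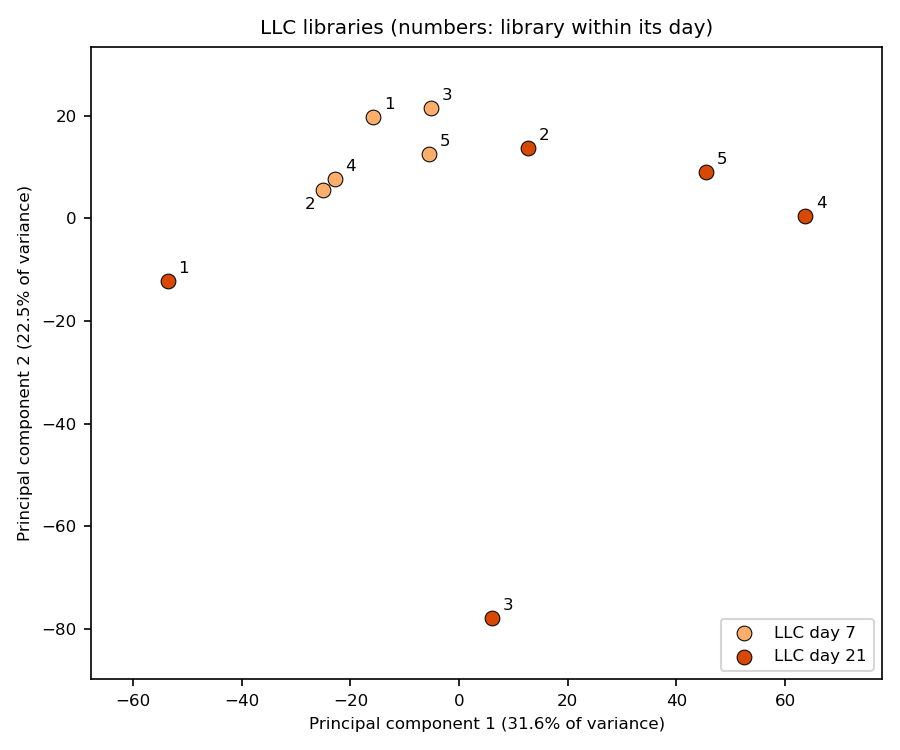
Each point is 1 LLC library, placed by its first (x axis) and second (y axis) principal component of log2 CPM over the genes tested, in arbitrary units, with the share of the variance on each axis; colours give the day and numbers the library. The 5 day 7 libraries lie close together, while day 21 libraries 1, 3 and 4 lie far from each other.

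A score per library shows how the gene groups moved across these libraries. It is the mean over the members of a list of log2(CPM + 1), each member taken relative to its own mean over the 10 LLC libraries. The cell cycle score was 2.29 in day 21 library 1 and between -0.98 and 0.50 in the other 9. The B cell and lymph node score was 4.43 in day 21 library 3 and at most 0.50 elsewhere. Skeletal muscle genes scored 3.22 in day 7 library 3, 3.74 in day 21 library 2 and 2.15 in day 21 library 5. The account below gives medians of several lists also without day 21 libraries 1 and 3, and without the 3 libraries high in muscle genes, which leaves 4 libraries of day 7 and 3 of day 21.

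**Figure D2:**
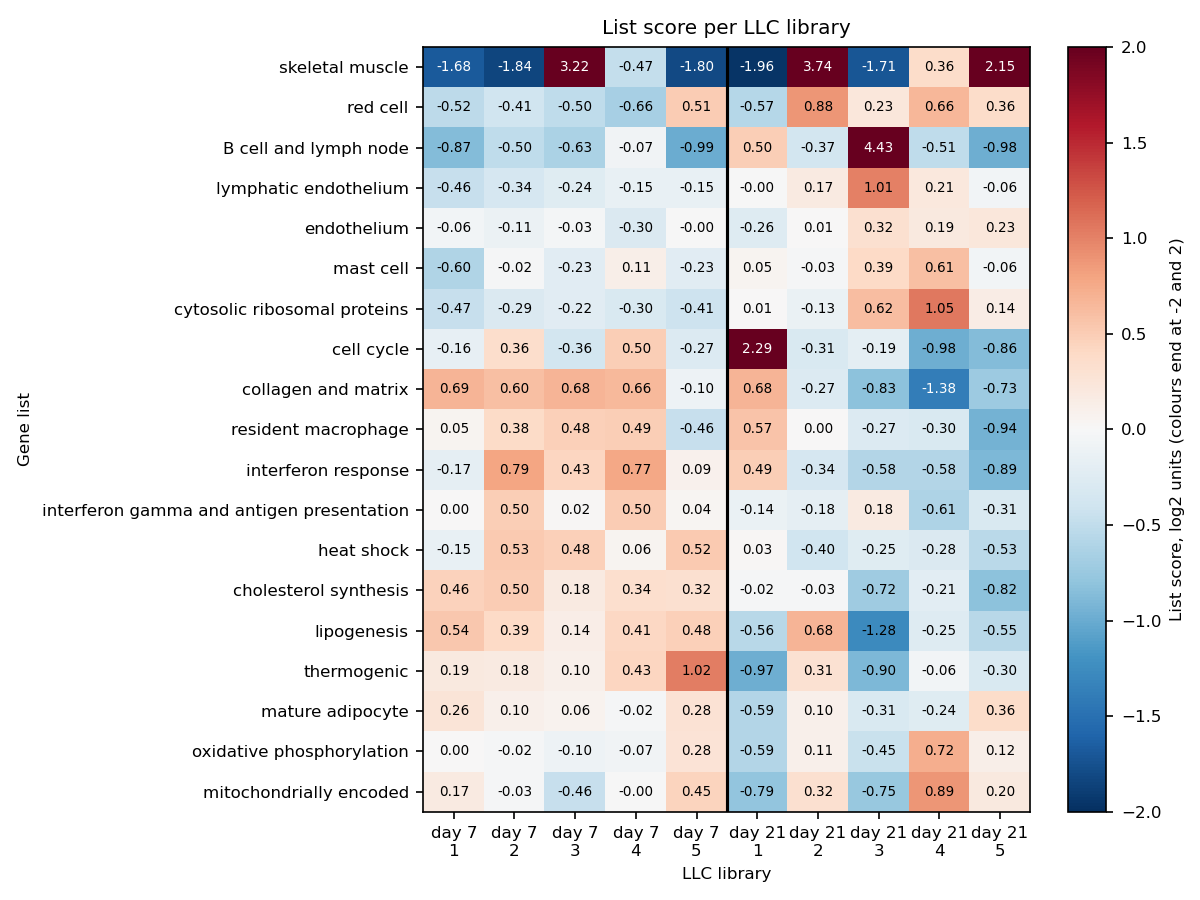
Rows are gene lists, columns the 10 LLC libraries, and colour and number give the list score of the library in log2 units; colours end at -2 and 2, and the black line separates day 7 (left) from day 21 (right). Cholesterol synthesis, ribosomal protein and lymphatic endothelium scores separate the days without overlap, while the cell cycle, B cell and muscle scores are set by 1 to 3 libraries.

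Only 2 genes changed between the days by the edgeR quasi-likelihood test with Benjamini-Hochberg adjustment, 0.0148% of the 13480 tested, and both fell. Creb3l1 (ENSMUSG00000027230, chromosome 2, 91982328 to 92024502) encodes a transcription factor of the endoplasmic reticulum membrane that is known for driving collagen genes in bone. It measured 53.6, 52.7, 69.8, 60.8 and 52.5 CPM at day 7 and 28.2, 20.3, 16.9, 13.7 and 14.2 CPM at day 21. All day 21 libraries lay below all day 7 libraries, library 1 being the highest of them, and the log2 fold change was -1.63 ± 0.20 (adjusted p = 0.0370). In PBS the log2 fold change of Creb3l1 was -1.07 ± 0.26 (adjusted p = 0.0504), and the day effects did not pass the test of their difference (-0.58 ± 0.33, adjusted p = 0.368).

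Trim67 (ENSMUSG00000036913, chromosome 8, 124793092 to 124834713), a member of the tripartite motif family of ubiquitin ligases best known from neurons, measured 26.2, 15.7, 16.5, 28.1 and 17.2 CPM at day 7 and 7.27, 6.67, 7.49, 5.26 and 7.07 CPM at day 21. Its day 21 libraries lay within a narrow band below all others, and the log2 fold change was -1.61 ± 0.20 (adjusted p = 0.0370). In PBS it was -0.47 ± 0.13 (adjusted p = 0.0666), and the difference of the day effects, -1.17 ± 0.25, had adjusted p = 0.0534.

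**Figure D3:**
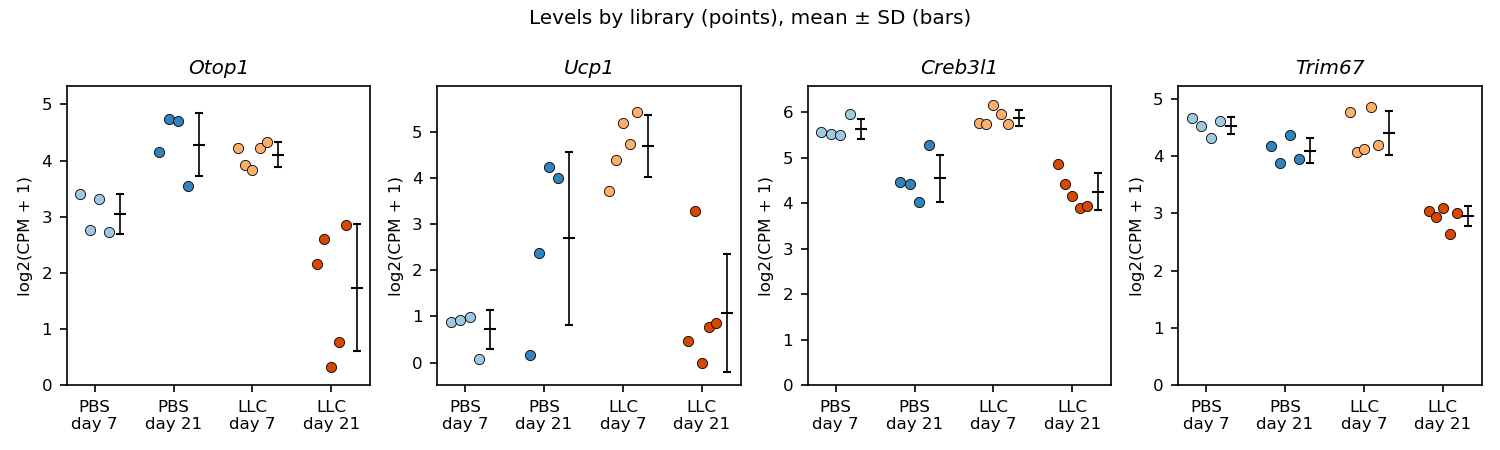
Points are libraries and bars the mean ± SD of log2(CPM + 1) (y axis) for Otop1, Ucp1, Creb3l1 and Trim67 in the 4 groups (x axis). All 5 day 21 LLC libraries lie below all 5 day 7 LLC libraries in each panel, and for Otop1 and Ucp1 the PBS means lie higher at day 21 than at day 7.

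How many genes pass depended on how the spread was estimated. At an unadjusted p under 0.05 stood 1907 genes, 1048 higher and 859 lower. Estimating the spread from all 18 libraries in 1 fit gave 248 calls (1.77% of 13975 genes), 118 higher (0.844%) and 130 lower (0.93%), and both genes above were among them. DESeq2 on the same 10 libraries gave 200 higher and 224 lower among 17556 genes. Without day 21 library 1 there were 203 calls, without day 21 library 2 there were 19, without day 7 library 5 there were 17, and without any other library in turn there was none (1330 to 1829 genes at an unadjusted p under 0.05). These fits share their LLC libraries, so none is independent support for another. Groups that did not overlap were found for 231 genes higher (1.71%) and 223 lower (1.65%) at day 21. The count of calls therefore moves with single libraries, and the gene groups below are described by their direction, median and these other counts. The counts over all genes given here are the background for those of each list.

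The 5 genes with the smallest p among those that were higher at day 21 did not pass (adjusted p = 0.125 for Csf2rb, the smallest). Csf2rb, the shared signalling subunit of the receptors for GM-CSF and related cytokines, measured 62.1, 70.3, 68.7, 49.2 and 75.4 CPM at day 7 and 107, 125, 155, 95.4 and 114 CPM at day 21 (log2 fold change 0.88 ± 0.15). Sema3f, a secreted guidance protein of the semaphorin family, had 15.3 to 27.1 CPM at day 7 and 30.2 to 36.7 CPM at day 21 (0.91 ± 0.16). Tmem252 had 8.29 to 17.8 and 18.3 to 41.4 CPM (1.40 ± 0.25). These ranges do not overlap between the days, and the 3 genes had PBS log2 fold changes of -0.061, -0.23 and -0.12. Unc93a2, a relative of Unc93a with which it may share reads, lay at 0.913 to 1.57 CPM at day 7 and 2.56 to 19.8 CPM at day 21, and library 4 held the highest value. Plvap, the protein of the diaphragms of capillary endothelium, had 93.0 to 127 and 150.1 to 225 CPM (0.77 ± 0.14). It did not pass in the fit of all 18 libraries either (adjusted p = 0.166). In PBS Plvap was lower at day 21 (-1.26 ± 0.43, adjusted p = 0.105), and the difference of the day effects, 2.01 ± 0.43, had adjusted p = 0.0534.

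Of the 5 genes with the smallest p among those that were lower, Creb3l1 and Trim67 passed and 3 did not (adjusted p = 0.125 for Igsf1). Igsf1, a membrane glycoprotein known from the pituitary, had 3.59, 3.60, 5.34, 2.70 and 0.844 CPM at day 7 and 0.295, 0.409, 0.496, 0.190 and 0.467 CPM at day 21. No day 21 library reached 0.5 CPM, and day 7 library 5 was the lowest of its group. Igsf1 fell in PBS too, with a log2 fold change of -3.34 ± 0.53 (adjusted p = 0.0187). Ppp1r3d, a subunit that directs protein phosphatase 1 to glycogen, measured 18.6 to 41.1 CPM at day 7 and 9.50 to 13.6 CPM at day 21 (-1.26 ± 0.20). Fam241a measured 19.8 to 25.5 and 13.3 to 16.0 CPM (-0.64 ± 0.10), and both had non-overlapping groups with PBS log2 fold changes of -0.23 and 0.087.

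Otop1 (ENSMUSG00000051596, chromosome 5, 38275972 to 38304217), the gene of the series title, encodes a proton channel of the otopetrin family. At day 7 its LLC libraries measured 17.8, 14.1, 13.2, 17.8 and 19.2 CPM, and at day 21 3.44, 5.09, 0.248, 0.697 and 6.20 CPM. Every day 21 library lay below every day 7 library, and libraries 3 and 4 were the lowest. The log2 fold change of -2.39 ± 0.63 did not pass over all genes (adjusted p = 0.185), did in the fit of all 18 libraries (adjusted p = 0.0399) and in DESeq2 (adjusted p = 0.00860), and an exact two-sided permutation test of Otop1 alone gave p = 0.00794, the smallest that 5 against 5 libraries allow. In PBS Otop1 rose, from 9.56, 5.80, 8.93 and 5.61 CPM to 16.8, 25.7, 25.0 and 10.6 CPM (1.36 ± 0.30, adjusted p = 0.0414). The day effects differed by -3.78 ± 0.79 (adjusted p = 0.0440), opposite in sign in LLC and PBS.

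Ucp1 (ENSMUSG00000031710, chromosome 8, 83290352 to 83298452) encodes the uncoupling protein of brown and beige fat. It measured 12.2, 20.03, 35.3, 25.6 and 42.0 CPM at day 7 and 0.393, 8.72, 0, 0.697 and 0.800 CPM at day 21 in LLC. No count was seen in day 21 library 3, and library 2 stood above the other 4. The log2 fold change was -3.67 ± 0.98 (adjusted p = 0.185; adjusted p = 0.0785 in the fit of all 18 libraries and adjusted p = 0.0485 in DESeq2), and the exact two-sided permutation test of Ucp1 alone gave p = 0.00794, again the smallest possible. In PBS the libraries measured 0.851, 0.897, 0.986 and 0.0585 CPM at day 7 and 0.120, 4.16, 17.8 and 14.9 CPM at day 21, a log2 fold change of 3.70 ± 1.14 (adjusted p = 0.0827). The difference of the day effects, -7.40 ± 1.63, had adjusted p = 0.0571.

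The thermogenic list taken whole leaned the same way in LLC. Of 26 thermogenic genes tested, Otop1 and Ucp1 included, 22 were lower and 4 higher at day 21 with a median log2 fold change of -0.45, against 0.047 over all genes, of which 7820 were higher and 5660 lower. None passed the edgeR test, 10 were lower at an unadjusted p under 0.05, DESeq2 called 5 lower, and the groups did not overlap for 3. Otop1 and Ucp1 were among the 10, the 5 and the 3. Cox7a1, a subunit of cytochrome oxidase abundant in brown fat, had 2.32 to 4.92 CPM at day 7 and 0.248 to 1.70 CPM at day 21 (-1.68 ± 0.45, adjusted p = 0.187). Without day 21 libraries 1 and 3, which scored lowest (-0.97 and -0.90), 16 were lower and 10 higher with a median of -0.23. The median was -0.67 without day 21 library 2, -0.24 without day 7 library 5 and -0.82 (22 of 26 lower) without the 3 libraries high in muscle genes. In PBS 22 of 25 were higher with a median of 0.68, 5 of them past the test (Otop1, Acot11, Plin5, Kcnk3 and Ppara), against 798 calls among all 13287 genes tested in PBS (6.01%). The test of the difference called 2 of the thermogenic genes, Otop1 and Acot11, with 58 calls among all 13975 genes (0.415%). Genes of the creatine, calcium and other futile cycles had a median of -0.27 (6 of 15 higher), and Alpl, a phosphatase placed in the creatine cycle, measured 7.84 ± 1.44 CPM (SD, n = 5) at day 7 and 4.29 ± 0.963 CPM at day 21 (-0.86 ± 0.20, adjusted p = 0.150).

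Markers of the mature adipocyte did not move as a group. Of 26, 11 were higher and 15 lower, the median was -0.058 and it changed sign without day 21 library 1 (0.066). In PBS 24 of 26 were higher (median 0.39). Lep, which encodes the satiety hormone leptin, stood apart: it measured 831, 559.9, 577, 759 and 564 CPM at day 7 and 382, 185, 339, 70.2 and 338 CPM at day 21. The LLC groups did not overlap and library 4 was lowest, but the log2 fold change of -1.32 ± 0.38 did not pass (adjusted p = 0.204; adjusted p = 0.0194 in DESeq2). In PBS the value was -0.55 ± 0.33 (adjusted p = 0.306), and the difference between them, -0.80 ± 0.55, had adjusted p = 0.453. Among 19 adipokines 9 were higher (median -0.16), and Rbp4, the retinol carrier of plasma, had 196 ± 35.6 CPM (SD, n = 5) and 109.6 ± 50.3 CPM with overlapping groups. Tmem182, a membrane protein induced as adipocytes and muscle cells mature, had 55.1 to 95.1 CPM at day 7 and 34.0 to 53.9 CPM at day 21 (-0.64 ± 0.16, adjusted p = 0.180).

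Genes of lipid synthesis were lower at day 21. Of 22 genes of fatty acid synthesis 21 were lower (median -0.49), 6 of them at an unadjusted p under 0.05, and none passed edgeR. Scd2, a desaturase that makes monounsaturated fatty acids, measured 772, 614, 558, 633 and 397 CPM at day 7 and 327, 303, 147, 77.9 and 84.0 CPM at day 21 (-1.66 ± 0.41, adjusted p = 0.163). Pnpla3, a lipid droplet hydrolase and acyltransferase, measured 311, 251, 223, 264 and 181 CPM and 109, 155, 62.1, 44.6 and 47.8 CPM (-1.55 ± 0.34, adjusted p = 0.150). Neither gene had overlapping groups, both passed in the fit of all 18 libraries (adjusted p = 0.0333 and adjusted p = 0.0200), and in PBS their log2 fold changes were 0.025 and 0.091. The lipogenesis score was lowest in day 21 library 3 (-1.28) and highest of all in day 21 library 2 (0.68), so the list as a whole did not separate the days. Its median was -0.15 without libraries 1 and 3, -0.79 without library 2 and -0.82 without the 3 libraries high in muscle genes. In PBS 20 of 22 members were higher, with a median of 0.37 (0.53 without day 21 PBS library 4). No member passed the test of the difference.

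Cholesterol synthesis showed the same direction with less dependence on single libraries. Of 24 genes tested 23 were lower (median -0.74, between -0.81 and -0.63 on leaving out each library), 17 at an unadjusted p under 0.05 and 7 with groups that did not overlap. None passed edgeR, the fit of all 18 libraries called 6 lower, and DESeq2 called 9 lower. Over all genes 1.65% were lower without overlap, and the fit of all 18 libraries called 0.93% lower. Sc5d, an enzyme of the last steps of the pathway, measured 196, 187, 124, 176 and 160.0 CPM at day 7 and 77.4, 111, 55.2, 48.1 and 48.1 CPM at day 21 (-1.30 ± 0.24, adjusted p = 0.125). Hmgcs1, the synthase that feeds HMG-CoA reductase, had 186 to 418 CPM at day 7 and 81.6 to 176 CPM at day 21 (-1.22 ± 0.26, adjusted p = 0.150), and Pmvk, the phosphomevalonate kinase, 41.7 to 58.5 and 19.2 to 39.3 CPM (-0.78 ± 0.18, adjusted p = 0.150). All day 21 scores lay at -0.018 or below and all day 7 scores at 0.18 or above. In PBS 10 of 24 were higher and the median was -0.016, and without day 21 PBS library 4 these were 15 of 24 and 0.12.

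Other steps of lipid and fuel handling were mixed. Triglyceride assembly had a median of -0.15 (7 of 18 higher), and Gpat3, which starts triglyceride synthesis in adipocytes, was the member that did not overlap, with 49.7 to 69.8 CPM at day 7 and 73.0 to 158 CPM at day 21 (0.76 ± 0.21, adjusted p = 0.200). Fatty acid uptake had a median of -0.031 (9 of 18 higher) and lipolysis -0.025 (13 of 28 higher), and no member of either list passed edgeR. Prkaca, the catalytic subunit of the kinase through which adrenergic signals start lipolysis, measured 174 ± 15.2 CPM (SD, n = 5) at day 7 and 126 ± 24.1 CPM at day 21 (-0.46 ± 0.14, adjusted p = 0.210). The insulin and glucose uptake list had a median of -0.14 (12 of 28 higher). In it Cav1, the caveolin of adipocyte surface caveolae, had 1471 to 1988 CPM at day 7 and 663 to 1329 CPM at day 21 (-0.71 ± 0.19, adjusted p = 0.188), and Trib3, a pseudokinase of the stress response, 3.28 to 5.07 and 4.67 to 8.87 CPM. Igfbp3, a carrier of insulin-like growth factors, measured 41.4, 27.3, 41.9, 41.1 and 37.8 CPM at day 7 and 49.5, 42.0, 126, 301 and 42.2 CPM at day 21, where library 4 was far above the others. Igfbp3 fell in PBS (-2.09 ± 0.17, adjusted p = 0.0100) and its day effects differed (3.63 ± 0.67, adjusted p = 0.0342).

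Mitochondrial genes varied among the day 21 libraries. Oxidative phosphorylation had a median of 0.04 (15 of 26 higher) and mitochondrially encoded genes 0.051 (9 of 13 higher), and both medians were below 0 on TPM. Without day 21 libraries 1 and 3 the medians were 0.33 (25 of 26 higher) and 0.42 (13 of 13 higher). Without the 3 libraries high in muscle genes they were -0.069 (11 of 26 higher) and -0.077 (3 of 13 higher), and without day 21 library 4 alone -0.18 and -0.27. The mitochondrially encoded score ran from -0.79 in library 1 and -0.75 in library 3 to 0.89 in library 4, and these genes took 8.45% of counts in library 1 and 20.8% in library 4. Fatty acid oxidation had a median of -0.19 (9 of 27 higher), which turned to 0.086 (19 of 27 higher) without libraries 1 and 3 and was -0.44 (3 of 27 higher) without the 3 libraries high in muscle genes. Cpt1b, the carnitine transferase of muscle and brown fat mitochondria, had 6.42 to 31.8 CPM at day 7 and 0.744 to 8.31 CPM at day 21 (-2.19 ± 0.66, adjusted p = 0.213). Acot1, a thioesterase induced by fatty acids, had 0.928 to 2.25 and 1.08 to 24.9 CPM, with the highest value in library 4 (24.9 CPM). In PBS 26 of 27 fatty acid oxidation genes and 26 of 26 oxidative phosphorylation genes were higher, with medians of 0.58 and 0.46. Branched-chain amino acid breakdown had a median of 0.055 (16 of 23 higher; below 0 on TPM and 0.27 without libraries 1 and 3).

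Cytosolic ribosomal protein genes were the group most uniformly higher at day 21. All 27 tested were higher, each at an unadjusted p under 0.05, with log2 fold changes from 0.476 to 1.01 and a median of 0.74. None passed the edgeR test, 14 passed in the fit of all 18 libraries, DESeq2 called 16, and 18 had groups that did not overlap. Rpl10 measured 107, 138, 118, 125 and 117 CPM at day 7 and 187, 161, 263, 404 and 198 CPM at day 21 (1.01 ± 0.23, adjusted p = 0.150). Rpl3 had 336 to 371 and 472 to 918 CPM (0.81 ± 0.19) and Rps2 393 to 472 and 585 to 1141 CPM (0.78 ± 0.18), with adjusted p = 0.150 and adjusted p = 0.150. In all 3 genes library 4 was the highest and library 2 the lowest of day 21, and no day 21 library reached down to the day 7 range. The median stayed between 0.52 (without day 21 library 4) and 0.86 on leaving out each library and was 0.61 on TPM, while in PBS it was -0.067 (-0.18 without day 21 PBS library 4). Ribosomal genes have many processed copies in the genome, among which reads were divided by estimation.

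Heat shock genes were lower at day 21. These chaperones and cochaperones keep proteins folded and are driven in stress by heat shock factor, which binds repeats of GAA and its reverse complement. Of 25 tested 24 were lower (median -0.42), 14 at an unadjusted p under 0.05 and 3 with groups that did not overlap. None passed edgeR, and the fit of all 18 libraries and DESeq2 each called 6 lower. Of the 20 list members with a promoter in the RefSeq table (GRCm38.p6, 250 bases before to 50 after a start site), 10 held the letters GAANNTTC on either strand in at least 1 of their windows (50%), against 7.06% of 10562 tested genes with a promoter. A match describes the letters and not a bound site. The 250 bases before the start site are shown for Dnaja1, a list member whose groups did not overlap, and for Dnaja4, a related cochaperone outside the list and among the genes with a different day effect in LLC and PBS, with matches in capitals.
Dnaja1 (chr4:40722218-40722467, + strand): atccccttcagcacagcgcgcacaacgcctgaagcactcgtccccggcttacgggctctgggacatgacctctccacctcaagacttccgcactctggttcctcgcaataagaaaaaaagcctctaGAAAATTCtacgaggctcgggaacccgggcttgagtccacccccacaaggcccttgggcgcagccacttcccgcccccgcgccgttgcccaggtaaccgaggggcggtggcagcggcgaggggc
Dnaja4 (chr9:54699309-54699558, + strand): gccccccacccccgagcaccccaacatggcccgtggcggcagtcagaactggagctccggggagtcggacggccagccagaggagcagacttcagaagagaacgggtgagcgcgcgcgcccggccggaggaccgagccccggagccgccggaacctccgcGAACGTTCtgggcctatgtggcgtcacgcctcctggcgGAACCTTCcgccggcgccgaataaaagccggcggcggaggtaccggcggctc

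The table lists 3 start sites for Dnaja1 and 2 for Dnaja4, and the window shown is the one of each gene with a match, 1 in Dnaja1 and 2 in Dnaja4. Dnaja1, a cochaperone of Hsp70, measured 240.0, 414, 377, 269 and 359 CPM at day 7 and 228, 172, 187, 136 and 142 CPM at day 21 (-0.94 ± 0.19, adjusted p = 0.139). Cryab, a small heat shock protein of muscle, lens and fat, measured 82.2, 65.7, 76.0, 76.7 and 59.8 CPM and 29.8, 35.2, 39.1, 23.1 and 51.9 CPM (-1.01 ± 0.19, adjusted p = 0.132). Neither overlapped between the days, and the PBS log2 fold changes were -0.27 and -0.0032. Chordc1, an Hsp90 cochaperone, had 61.7 to 98.3 CPM at day 7 and 42.7 to 64.7 CPM at day 21 (-0.70 ± 0.16, adjusted p = 0.150). The heat shock score of day 7 library 1 was -0.15 and that of day 21 library 1 was 0.029, so the days overlapped in the score. The list median was -0.66 (24 of 25 lower) without day 21 libraries 1 and 3. In PBS the median was -0.24, with 4 of 25 higher.

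Interferon-responsive genes were lower at day 21. Type I interferon acts through a factor complex that binds the interferon element, here searched as GAAA, any 2 bases and GAAA again, and interferon gamma induces chemokines, guanylate-binding proteins and antigen presentation. All 26 genes of the type I list were lower with a median of -0.73, 15 at an unadjusted p under 0.05, and none passed edgeR. No member had non-overlapping groups, and DESeq2 called 1. Of the interferon gamma and antigen presentation list 20 of 26 were lower (median -0.35), 13 at an unadjusted p under 0.05 and 5 with non-overlapping groups. Without day 21 libraries 1 and 3 the medians were -1.06 (26 of 26 lower) and -0.61 (25 of 26 lower). In PBS the medians were -0.15 (9 of 26 higher) and 0.089 (16 of 26 higher). Without day 21 PBS library 4 the type I median in PBS was -0.26. Summed levels of the type I list were 1643 to 2524 CPM at day 7 and 1127 to 1824 CPM at day 21 in LLC. In PBS they were 1366 to 1548 CPM at day 7 and 1479 to 2028 CPM at day 21. Day 7 LLC thus lay above day 7 PBS, and day 21 LLC overlapped both PBS groups. The test of the difference called 0 members of the first list and 3 of the second. Again none of the second list passed edgeR, while the fit of all 18 libraries called 6 lower and DESeq2 9 lower. The interferon element was found in 10 of 18 promoters of the first list (55.6%) and 9 of 18 of the second (50%), against 3.99% of tested genes. The bases before the start site are shown for Bst2 and Gbp3, a member of each list with the element, matches on either strand in capitals.
Bst2 (chr8:71537473-71537722, - strand): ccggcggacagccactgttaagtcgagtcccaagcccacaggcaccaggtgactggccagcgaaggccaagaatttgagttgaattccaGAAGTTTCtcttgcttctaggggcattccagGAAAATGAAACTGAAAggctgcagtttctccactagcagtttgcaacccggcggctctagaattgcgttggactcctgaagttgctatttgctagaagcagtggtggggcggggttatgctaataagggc
Gbp3 (chr3:142559794-142560043, + strand): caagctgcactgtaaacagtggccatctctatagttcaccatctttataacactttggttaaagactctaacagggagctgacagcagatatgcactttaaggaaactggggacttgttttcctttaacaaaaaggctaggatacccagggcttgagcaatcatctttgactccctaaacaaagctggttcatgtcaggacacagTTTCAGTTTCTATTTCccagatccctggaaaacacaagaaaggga

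Gbp3 has another start site in the table whose window holds no match. Each of the windows shown holds 2 overlapping interferon elements, those of Gbp3 on the reverse strand, and the first capitals of Bst2 are a heat shock match. Bst2, the antiviral protein tetherin, measured 39.1, 80.5, 58.0, 80.8 and 46.7 CPM at day 7 and 51.7, 31.5, 30.6, 28.8 and 26.9 CPM at day 21 (-0.84 ± 0.24, adjusted p = 0.204). Library 1 of day 21 stood above the other 4 and within the range of day 7. Gbp3, a guanylate-binding GTPase, had 49.6 to 113 CPM at day 7 and 25.0 to 42.3 CPM at day 21 (-1.06 ± 0.26, adjusted p = 0.153), and its relative Gbp6 73.7 to 149 and 34.9 to 62.6 CPM (-1.19 ± 0.24, adjusted p = 0.135). Cxcl9, a chemokine that attracts T cells, measured 59.4, 62.7, 39.1, 55.9 and 47.5 CPM at day 7 and 23.2, 28.5, 24.01, 17.2 and 31.5 CPM at day 21 (-1.09 ± 0.18, adjusted p = 0.125). Gbp3, Gbp6 and Cxcl9 had non-overlapping groups, although reads of the guanylate-binding family are divided among close relatives. In PBS the log2 fold changes were 0.35 for Gbp6 and 0.36 for Cxcl9, and the day effects differed between LLC and PBS for both (-1.57 ± 0.33, adjusted p = 0.0480, and -1.48 ± 0.31, adjusted p = 0.0440). The type I score of day 21 library 1 was 0.49 and those of libraries 2 to 5 lay between -0.89 and -0.34.

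Other inflammatory lists had no common direction. The acute phase and IL-6 list had a median of 0.25 (14 of 22 higher), which was 0.02 without day 21 library 1 and 0.049 without libraries 1 and 3. Orm1, which encodes the acute phase protein orosomucoid and has a close relative next to it, measured 189.6, 152, 132, 139 and 126 CPM at day 7 and 49.0, 55.7, 11.3, 27.3 and 56.1 CPM at day 21 (-1.88 ± 0.37, adjusted p = 0.134; adjusted p = 0.0183 in the fit of all 18 libraries). The groups of Orm1 did not overlap, and in PBS it had 0.25. Itih4, another acute phase protein, measured 2.54, 4.51, 2.43, 4.02 and 8.15 CPM and 17.2, 25.3, 4.76, 31.5 and 9.40 CPM (2.03 ± 0.51, adjusted p = 0.173), with library 3 as low as day 7. The NF-kB, TNF and chemokine list had a median of 0.13 (18 of 26 higher; -0.093 without day 21 libraries 1 and 3). Nfkbia, the inhibitor that NF-kB induces, had 52.4 ± 12.9 CPM (SD, n = 5) and 87.0 ± 21.7 CPM (0.74 ± 0.20, adjusted p = 0.193), and Cxcl13, the chemokine of B cell follicles, 10.5 to 40.2 CPM at day 7 and 14.9 to 314 CPM at day 21. Complement had a median of -0.24 (7 of 20 higher), -0.45 without day 21 library 1 and -0.029 without the 3 libraries high in muscle genes. Cfb, the protease of the alternative pathway, had 413 ± 39.6 and 264 ± 66.8 CPM (-0.64 ± 0.17, adjusted p = 0.181), and C7, of the membrane attack complex, -1.26 ± 0.41 in LLC and -3.49 ± 0.42 in PBS (adjusted p = 0.0138).

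Stress, turnover and signalling lists held members of both directions, and none of their members passed edgeR. The glucocorticoid list had a median of 0.20 (13 of 23 higher; 0.011 without day 21 library 4) and the fit of all 18 libraries called 2 of its members higher, the metal-binding metallothioneins Mt1 and Mt2. Mt1 measured 80.3, 139, 109, 132 and 111 CPM at day 7 and 328, 250.5, 113, 632 and 259 CPM at day 21 (1.47 ± 0.37, adjusted p = 0.173), and Mt2 had 21.3 to 72.3 and 54.1 to 409.8 CPM (1.99 ± 0.51, adjusted p = 0.180). Day 21 library 3 lay within the day 7 range in both and library 4 was highest. Cebpb, a transcription factor of adipocyte differentiation and inflammation, had 108 to 156 CPM at day 7 and 58.3 to 107 CPM at day 21 (-0.61 ± 0.18, adjusted p = 0.206). The unfolded protein and integrated stress response list had a median of -0.01 (10 of 21 higher), and Edem1, which hands misfolded proteins over for degradation, had 125 to 150.4 and 59.1 to 124 CPM (-0.56 ± 0.16, adjusted p = 0.209). Autophagy and atrophy genes had 0.14 (17 of 24 higher) and lysosomal genes -0.031 (11 of 25 higher). Npc2, which carries cholesterol out of lysosomes, had 504 to 611 CPM at day 7 and 334 to 494 CPM at day 21 (-0.41 ± 0.13, adjusted p = 0.215), and its day effect differed from that in PBS (-0.77 ± 0.15, adjusted p = 0.0415). The circadian clock had 0.018 (11 of 20 higher), serine and one-carbon metabolism 0.12 (13 of 22 higher) and immediate early genes -0.21 (7 of 18 higher). Egr1, an immediate early factor, had 17.9 to 147 and 12.2 to 20.8 CPM (-1.83 ± 0.51, adjusted p = 0.197).

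Matrix genes were lower at day 21 in LLC and in PBS. Of 31 collagen and matrix genes 27 were lower in LLC (median -0.91) and 29 of 31 in PBS (median -0.93), and the test of the difference called none (median difference -0.084), a count that does not show equal effects. Day 21 PBS library 4 stood apart in these genes, with 996 CPM of Fn1 against 38.3 to 57.9 CPM in the other 3, and without it 31 of 31 were lower in PBS (median -1.37). None passed edgeR in LLC, where 14 were lower at an unadjusted p under 0.05 and DESeq2 called 5, and 4 passed in PBS. Fn1, fibronectin, measured 2384, 1871, 2875, 2618 and 515 CPM at day 7 and 1114, 713, 677, 544 and 806 CPM at day 21 (-1.41 ± 0.39, adjusted p = 0.196). Col6a1, a chain of the microfibrillar collagen VI of fat, measured 689, 652, 667, 652 and 364 CPM and 512, 247, 179.8, 137 and 198 CPM (-1.24 ± 0.34, adjusted p = 0.188), and Col5a3, a collagen V chain, 182 to 301 and 76.6 to 231 CPM (-1.10 ± 0.29, adjusted p = 0.185). Day 7 library 5 was the lowest of its group in all 3 genes and day 21 library 1 the highest of its own, and the days overlapped in each. On leaving out day 21 library 1 the median of the list was -1.41. Without libraries 1 and 3 of day 21 edgeR called 3 lower.

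Matrix proteases had a median of 0.023 (12 of 23 higher; below 0 on TPM and -0.31 without day 21 libraries 1 and 3), and Mmp11, a metalloprotease of remodelling stroma, had 4.43 to 7.94 CPM at day 7 and 7.27 to 18.05 CPM at day 21 (1.04 ± 0.26, adjusted p = 0.177). The TGF-beta superfamily had -0.10 (14 of 30 higher). Fst, the secreted activin antagonist follistatin, had 24.2 to 32.3 CPM at day 7 and 12.9 to 19.5 CPM at day 21 (-0.75 ± 0.14, adjusted p = 0.125) and fell in PBS (-1.36 ± 0.24, adjusted p = 0.0261). Bmp4, a ligand that commits progenitors to the adipocyte lineage, had 2.69 to 4.10 and 4.82 to 7.60 CPM (0.79 ± 0.19, adjusted p = 0.153). Neither gene had overlapping LLC groups. Progenitor and fibroblast markers were lower for 19 of 23 (median -0.34; -0.99 in PBS), and their summed level was 10924 to 14561 CPM at day 7 and 8755 to 13167 CPM at day 21. Smoc2, a matricellular protein of these cells, had 49.98 to 102 CPM at day 7 and 18.5 to 48.6 CPM at day 21 (-1.09 ± 0.26, adjusted p = 0.151), and fell in PBS (-1.39 ± 0.17, adjusted p = 0.0138).

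The higher cell cycle genes rested on 1 library. All 30 were higher at day 21 (median 0.73), but without day 21 library 1 the median was -0.98, and 3 of 30 were higher without libraries 1 and 3. Cdc20, an activator of the anaphase complex, measured 21.1, 0.936, 1.69, 0.950 and 1.67 CPM at day 21 and 0.972 to 3.57 CPM at day 7. Mcm7, a subunit of the replicative helicase, was the member whose groups did not overlap, with 18.8 to 21.9 CPM at day 7 and 23.6 to 47.6 CPM at day 21, and its highest value was in library 4 (0.71 ± 0.17, adjusted p = 0.150). Histone genes had a median of 0.06 (5 of 10 higher). Among them the linker histones H1f4 (2.75 to 5.48 CPM at day 7 and 0.570 to 1.77 CPM at day 21; -1.72 ± 0.31, adjusted p = 0.125) and H1f2 (45.1 to 61.1 and 32.6 to 42.0 CPM; -0.51 ± 0.11, adjusted p = 0.150) did not overlap between the days. Selection of poly(A) RNA catches most histone messages poorly, and the near-identical copies share reads.

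Markers of immune cells were examined as measures of what the tissue held. Resident macrophage markers were lower for 18 of 20 (median -0.28), with summed levels of 1885 to 4019 CPM at day 7 and 1515 to 4245 CPM at day 21 that overlapped. The median was -0.13 without day 21 library 5, -0.53 without library 1, -0.65 (20 of 20 lower) without libraries 1 and 3 and -0.038 (12 of 20 lower) without the 3 libraries high in muscle genes. In PBS it was -1.11, and -2.44 without day 21 PBS library 4. Mgl2, a lectin of such macrophages, had 63.8 ± 4.82 CPM (SD, n = 5) at day 7 and 47.1 ± 9.53 CPM at day 21, and its day effects differed (1.22 ± 0.24, adjusted p = 0.0415); it fell in PBS (-1.68 ± 0.20, adjusted p = 0.0138). Lipid-associated macrophage markers had a median of 0.26 (14 of 18 higher), which was -0.025 without day 21 library 1. Plin2, a droplet coat protein of that list which adipocytes express as well, had 373 to 597 CPM at day 7 and 213 to 384 CPM at day 21 (-0.79 ± 0.19, adjusted p = 0.153), and a different day effect in PBS (-1.30 ± 0.26, adjusted p = 0.0415). Neutrophil markers had a median of 1.09 (9 of 12 higher) at summed levels of 99.5 to 127 CPM at day 7 and 69.8 to 161 CPM at day 21. That median was 0.29 without day 21 library 4, 1.60 without day 7 library 5 and 0.48 on TPM. In that list Mmp9, a protease of neutrophils and macrophages, had 18.2 to 33.5 and 15.2 to 22.2 CPM (-0.48 ± 0.17, adjusted p = 0.263).

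T and NK cell markers had a median of 0.35 (13 of 21 higher) and dendritic cell and eosinophil markers 0.086 (6 of 10 higher). Without day 21 library 3 the medians were -0.39 and -0.20. All 11 B cell and lymph node markers tested were higher (median 4.48), and without library 3 the median was -0.015. Pax5, the factor that defines B cells, had 3.54, 1.05, 173, 0.570 and 0.667 CPM at day 21. Igkc, the kappa light chain constant region, had 97.6, 10.6, 319, 7.35 and 12.1 CPM, and Jchain, the joining chain of secreted antibody, 19.3, 2.05, 6.10, 2.72 and 4.40 CPM. Pax5 was thus high in library 3 alone, whereas Igkc and Jchain were also high in library 1, where Jchain was highest, and in all day 21 libraries exceeded the day 7 ranges of 1.24 to 5.91 and 0.309 to 1.55 CPM (4.48 ± 1.10, adjusted p = 0.158, and 2.87 ± 0.68, adjusted p = 0.150).

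Endothelial and mural markers were higher in a share near that of all genes. Endothelial markers had a median of 0.23 with 15 of 24 higher (62.5%, against 58.0% of all genes), and their summed levels of 10148 to 12108 CPM at day 7 and 7391 to 16807 CPM at day 21 overlapped. At an unadjusted p under 0.05, 6 were higher and none lower. Selp, the selectin by which venules catch leukocytes, measured 9.59, 14.3, 11.6, 10.8 and 22.3 CPM at day 7 and 25.7, 28.4, 44.6, 37.2 and 36.1 CPM at day 21 (1.33 ± 0.24, adjusted p = 0.125; adjusted p = 0.0426 in the fit of all 18 libraries), without overlap. Vwf, von Willebrand factor, measured 71.9, 85.5, 95.3, 83.2 and 111 CPM and 100.1, 144, 197, 212 and 156 CPM (0.86 ± 0.20, adjusted p = 0.150). Vwf was lower in PBS, at -1.26 ± 0.38 (adjusted p = 0.0799), and the day effects differed (2.10 ± 0.43, adjusted p = 0.0415). Lymphatic endothelial markers had a median of 0.59 (9 of 13 higher), and the fit of all 18 libraries called 3 higher, Stab2 and Fxyd6 among them. Stab2, a scavenger receptor of sinusoidal and lymphatic endothelium, was near 0 at day 7 (0.0618 to 0.540 CPM) and had 0.442, 1.05, 15.6, 3.23 and 1.80 CPM at day 21, while Fxyd6 had 5.13 to 8.51 and 9.27 to 28.2 CPM (1.05 ± 0.28, adjusted p = 0.185). Lymphatic genes were highest in library 3, where B cell genes were also high, with a score of 1.01. All day 21 lymphatic scores lay at -0.060 or above and all day 7 scores at -0.15 or below. The lymphatic median was 0.49 without day 21 libraries 1 and 3. In PBS it was -0.77, and -1.68 without day 21 PBS library 4. Mural cell markers had a median of 0.078 (9 of 15 higher) and of -0.41 without the 3 libraries high in muscle genes.

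Markers of other tissue were present in every group. Skeletal muscle markers summed to 47.4 to 2533 CPM at day 7 and 35.5 to 3349.9 CPM at day 21. Their median was 0.63 (18 of 19 higher) and -0.80 without day 21 library 2, and Myh1, a fast myosin, had 1.33, 75.0, 0.298, 16.3 and 75.8 CPM at day 21 and 0.376 to 1.24 CPM at day 7. Schwann cell and nerve markers were lower for 14 of 18 (median -0.55; 0.25 in PBS), 7 at an unadjusted p under 0.05. All 10 red cell markers were higher (median 0.82; -0.64 in PBS). Hbb-bt, a beta globin with a near-identical neighbour, measured 91.2, 107, 81.9, 71.1 and 205 CPM at day 7 and 86.1, 287, 173, 268 and 209 CPM at day 21, so day 7 library 5 lay with day 21 and day 21 library 1 with day 7. Skin and mammary epithelium markers summed to 17.4 to 55.5 CPM at day 7 and 26.5 to 82.1 CPM at day 21 (median 0.88, 5 of 7 higher), with Krt1 and Wap at 0.

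**Figure D4:**
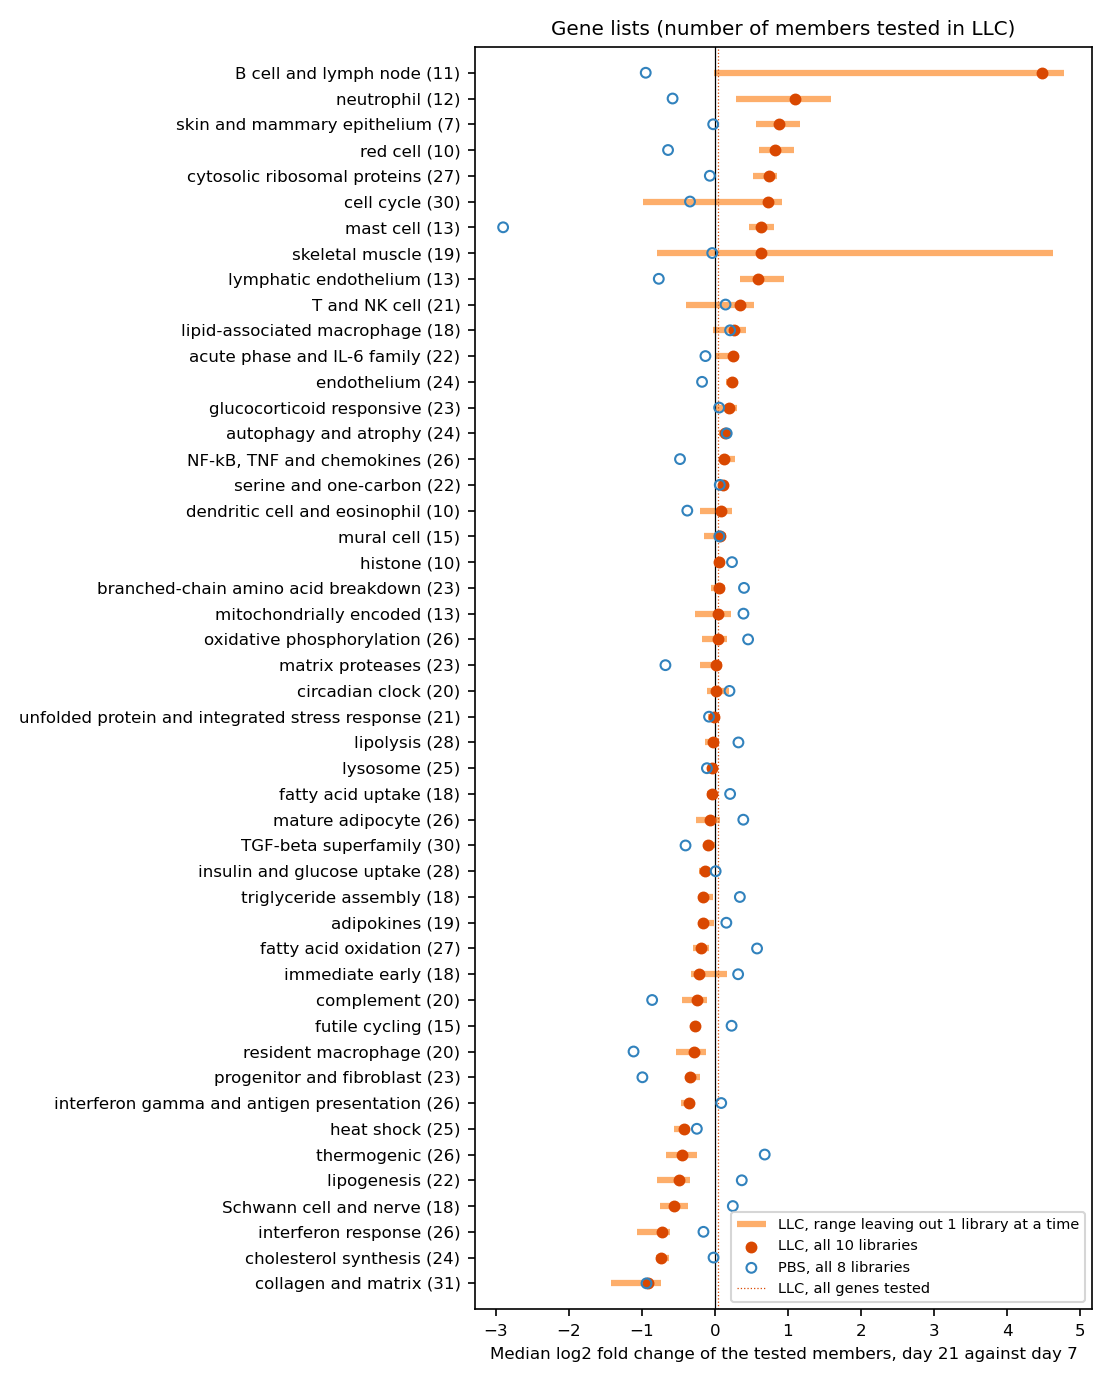
For each gene list (y axis, with the number of members tested in LLC) the x axis gives the median log2 fold change, day 21 over day 7: filled points for LLC, orange lines for the range over leaving out each LLC library in turn, open points for PBS, and the dotted line for all genes in LLC. The lines of many lists reach or cross 0. Among them are the B cell, cell cycle, skeletal muscle, T and NK cell, mature adipocyte, oxidative phosphorylation and mitochondrially encoded lists. Collagen and matrix lies at -0.91 in LLC beside -0.93 in PBS.

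The last comparison asked which genes took a different course in LLC and in PBS. The test of the difference of the day effects called 58 genes (0.415% of 13975), 37 with the higher and 21 with the lower value in LLC. None was a tested member of the lipogenesis, cholesterol synthesis, ribosomal protein, heat shock or type I interferon lists. The same held for the oxidative phosphorylation, fatty acid oxidation and Schwann cell lists. The lack of calls does not show equal effects. In the PBS comparison itself 338 genes rose and 460 fell. On TPM with limma the split was 82 and 979, with the median of all genes moved from -0.019 to -0.18, and with DESeq2 it was 1218 and 973, so PBS directions near 0 depend on the scaling. Without day 7 PBS library 2 or 4 no gene was called in PBS (3105 and 2811 at an unadjusted p under 0.05), and without day 21 PBS library 4 there were 4121 calls. In the fit of all 18 libraries 248 genes were called in LLC and 449 in PBS, of 13975 tested. Of those 248, 18 were called in PBS in that fit in the same direction and 3 in the opposite one. The 5 with the smallest p of the higher group were Id2 and 4 proteases of mast cells, sentinel cells of connective tissue. Mcpt4 measured 11.1, 17.0, 15.6, 21.9 and 14.6 CPM at day 7 and 27.6, 19.4, 29.3, 29.3 and 17.8 CPM at day 21 in LLC (0.63 ± 0.20, adjusted p = 0.235). In PBS it measured 10.3, 13.9, 9.55 and 19.998 CPM at day 7 and 0.843, 1.32, 0.261 and 2.03 CPM at day 21 (-3.60 ± 0.50, adjusted p = 0.0169), and the effects differed by 4.20 ± 0.50 (adjusted p = 0.00151). The LLC days overlapped, and Mcpt4 fell in PBS. Cma1, Cpa3 and Tpsb2 followed it, with LLC log2 fold changes of 0.41, 0.41 and 0.90, PBS values of -3.50, -3.78 and -3.22 and differences of 3.88 ± 0.46, 4.16 ± 0.52 and 4.09 ± 0.61 (adjusted p = 0.00151, adjusted p = 0.00177 and adjusted p = 0.00927). Over the mast cell list 12 of 13 were higher in LLC (median 0.63) and 0 of 9 in PBS (median -2.90), and 4 differed by test. Its summed level in LLC was 78.5 to 131 CPM at day 7 and 108 to 182 CPM at day 21, with Mcpt1 at 0, and these proteases share reads with close relatives. Id2, an inhibitor of helix-loop-helix factors, had 17.5 ± 2.37 CPM (SD, n = 5) and 20.4 ± 1.29 CPM in LLC (0.23) and -0.76 in PBS, a difference of 0.97 ± 0.14 (adjusted p = 0.00927).

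The 5 with the smallest p of the lower group were lower at day 21 in LLC, with non-overlapping groups, and had positive log2 fold changes in PBS. H2bc4, a replication histone with near-identical copies, measured 70.6, 70.5, 83.8, 60.0 and 71.5 CPM at day 7 and 54.5, 49.4, 47.3, 41.7 and 46.4 CPM at day 21 in LLC (-0.57 ± 0.11, adjusted p = 0.125), against 0.34 ± 0.069 (adjusted p = 0.0363) in PBS, and the effects differed by -0.94 ± 0.13 (adjusted p = 0.00505). Dnaja4 had 23.6 to 31.4 CPM at day 7 and 15.04 to 20.3 CPM at day 21 in LLC, 0.25 in PBS and a difference of -0.99 ± 0.16 (adjusted p = 0.0148). Slc18b1, a vesicular polyamine transporter, had 36.8 to 50.6 and 27.0 to 34.9 CPM and a difference of -0.88 ± 0.15 (adjusted p = 0.0199). Lamc3, a laminin chain, had 15.8 to 18.8 and 3.42 to 10.1 CPM and -1.83 ± 0.33 (adjusted p = 0.0269), and Mecr, a reductase of mitochondrial fatty acid synthesis, 37.0 to 46.0 and 19.6 to 36.1 CPM and -1.13 ± 0.20 (adjusted p = 0.0283). In PBS the last 3 had log2 fold changes of 0.27, 0.49 and 0.55. The count of differing genes rose to 1222 without day 21 PBS library 4, which stood apart in stromal genes (Fn1 measured 38.3, 57.9, 41.7 and 996 CPM in PBS libraries 1 to 4 of day 21), was between 6 and 369 without any other single library, and was 1190 without it and day 21 LLC libraries 1 and 3.

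**Figure D5:**
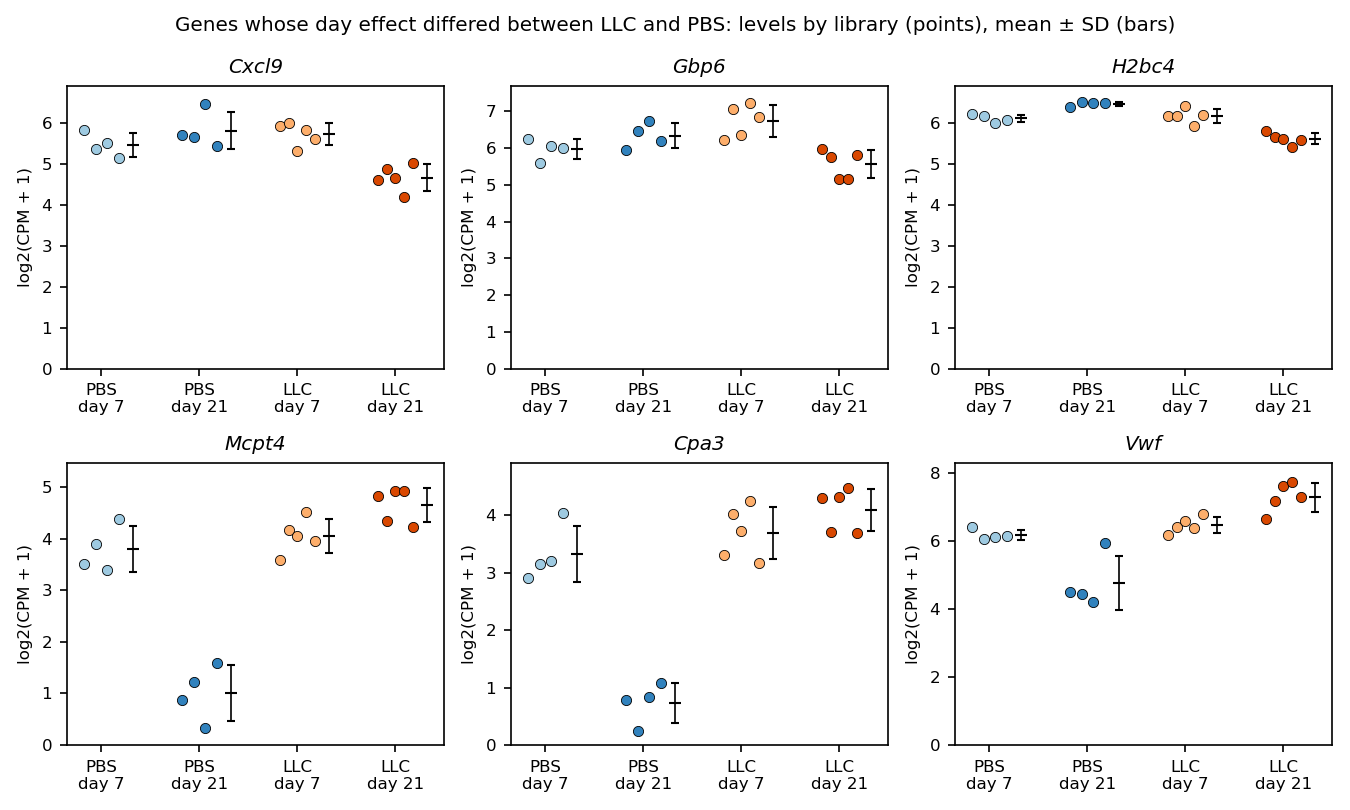
Points are libraries and bars the mean ± SD of log2(CPM + 1) (y axis) in the 4 groups (x axis) for Cxcl9, Gbp6, H2bc4, Mcpt4, Cpa3 and Vwf. In the upper row day 21 LLC lies lowest, and in the lower row day 21 PBS lies lowest.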

How the data were processed

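Poly(A) RNA of inguinal fat was sequenced in 18 libraries, of which the 10 LLC libraries carry the comparison. Per the labels' protocols, RNA was enriched with oligo(dT) and libraries were made with a NEBNext Ultra kit. Per the submitters' processing notes, the tools included fastp 0.23.0 and RSEM (version not given) with mm10 and GRCm38 named as builds. For the aligner and the annotation: not given in the sources used here. Deposited by the authors were expected counts per gene, estimated by RSEM and rounded to whole numbers (100% of entries), beside TPM, the authors' length-scaled unit, which was used here for alternatives only. The authors' own comparisons of LLC with PBS within a day, with a log2 ratio of mean TPM, a p-value and an FDR per the file headers, were not used. RSEM divides reads shared by similar genes, so values of paralogs are uncertain.

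The day 7 and day 21 tables were joined by gene ID (21899 IDs, 30 without a symbol). Counts were filtered with filterByExpr, scaled by TMM and tested with the quasi-likelihood test of edgeR 4.0.16 (R 4.3.3) with Benjamini-Hochberg adjustment at 0.05. The LLC fit held 10 libraries, the PBS fit 8, and the test of the difference of the day effects all 18. Printed CPM are scaled over all 18 libraries, and a non-overlap call compares CPM. Standard errors were taken as the size of the log2 fold change over the root of F. An additional test of Otop1 and of Ucp1 alone was an exact two-sided permutation test on log2(CPM + 1). The code was tested on simulated data first. Alternatives used DESeq2 1.42.0, DESeq2 size factors, other filters, a robust fit, limma 3.58.1 on log2(TPM + 1) and log2(TPM + 0.1), a replicate block, 1 fit of all 18 libraries and libraries left out.

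The 48 gene lists, the rules and the tests were chosen with earlier results of these data known. Named genes are Otop1, Ucp1, Adipoq and Lep, genes past the LLC threshold (with fewer than 5 in a direction, the 5 of smallest p), up to 3 members of each list with the smallest p, and the 5 of each direction with the smallest p of the difference, with a mean of at least 1 CPM in a group. Not every gene that this rule names is reported here. Other names that stand beside a small count were chosen after their values were seen. Gene positions come from GENCODE M21 (GRCm38; 21806 IDs matched) and promoters from RefSeq (GRCm38.p6; 64 of 85 named genes had an entry). No 2 libraries of a group agreed within sampling noise (lowest chi-square per gene 15.9 over 20 LLC pairs).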

Additional observations from a re-analysis of the deposited data

Results flagged for a closer look

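Within groups of 5 LLC libraries, 28 of 266 sets of values held a library far from the other 4 by Dixon's criterion. For independent, normally distributed sets chance gives about 1 in 20. These sets share libraries, and genes belong to the lists scored, so the share found cannot be set against that rate. Day 21 library 1 stood apart with a cell cycle score of 2.29 and with 21.1 CPM of Cdc20, 51.7 CPM of Bst2, 230.5 CPM of Col5a3 and 19.3 CPM of Jchain. In day 21 library 3 the B cell and lymph node score was 4.43 and the lymphatic score 1.01, with 319 CPM of Igkc, 173 CPM of Pax5 and 15.6 CPM of Stab2. Day 21 library 4 stood apart with 19.8 CPM of Unc93a2, 24.9 CPM of Acot1 and 1141 CPM of Rps2, and day 21 library 2 with 8.72 CPM of Ucp1.

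Of the day 7 libraries, number 5 stood apart most often. It had scores of 0.23 for triglyceride assembly, 0.52 for fatty acid oxidation, 0.28 for oxidative phosphorylation, -0.096 for collagen and matrix, 0.37 for mural cells, 0.51 for red cells and 0.36 for skin and mammary epithelium. Its levels were 27.1 CPM of Sema3f, 4.92 CPM of Cox7a1, 364 CPM of Col6a1, 5.13 CPM of Fxyd6 and 205 CPM of Hbb-bt. Day 7 library 2 stood apart with 27.3 CPM of Igfbp3 and day 7 library 3 with a skeletal muscle score of 3.22.

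The edgeR test of the difference of the day effects between LLC and PBS called 19 of the 85 named genes. Over all genes it called 58 of 13975 (0.415%). Mcpt4, Cma1, Cpa3, Tpsb2, Id2, H2bc4, Dnaja4, Slc18b1, Lamc3 and Mecr were named for their small p in this same test. The count of 19 is therefore in part fixed by that choice and cannot be set against the share over all genes. The log2 difference was positive for Mcpt4 (4.20), Cpa3 (4.16), Tpsb2 (4.09), Cma1 (3.88), Igfbp3 (3.63), Vwf (2.10), Mgl2 (1.22) and Id2 (0.97). It was negative for Otop1 (-3.78), Lamc3 (-1.83), Gbp6 (-1.57), Cxcl9 (-1.48), Plin2 (-1.30), Mecr (-1.13), Dnaja4 (-0.99), H2bc4 (-0.94), Slc18b1 (-0.88), H1f2 (-0.84) and Npc2 (-0.77). Other values of these genes stand with the results above.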

How the results depend on the processing

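The number of genes called in LLC (2) was 2 with DESeq2 size factors, without a filter on low counts, with a minimum of 1 CPM, with a robust fit and with limma on log2(TPM + 1). It was 424 with DESeq2, 248 in 1 fit of all 18 libraries, 0 with limma on log2(TPM + 0.1) (1135 at an unadjusted p under 0.05), 42 without day 21 libraries 1 and 3 and 0 without the 3 libraries high in muscle genes (1845 at an unadjusted p under 0.05). Leaving out each library gave 0 to 203 calls. In PBS 798 calls became 2191 with DESeq2, 443 without a filter, 449 in the fit of all 18 libraries and 0 to 4121 on leaving out each library (0 without day 7 library 2 or 4, 4121 without day 21 library 4). The 58 genes with a different day effect became 725 with DESeq2, 21 and 23 with limma on log2(TPM + 1) and log2(TPM + 0.1), and 6 (without day 21 PBS library 1) to 1222 (without day 21 PBS library 4) on leaving out each library; without day 21 LLC library 2 there were 369. Without day 21 LLC libraries 1 and 3 and PBS library 4 there were 1190. The 454 genes whose LLC groups do not overlap became 236 on TPM, 1967 without day 21 libraries 1 and 3 and 524 to 1138 on leaving out each library. Groups that do not overlap stay apart when a library is left out, so on leaving out libraries this count could not fall. These settings for non-overlap, and the one that leaves out 3 libraries in the test of the difference, were chosen after seeing the data. The cause of the other shifts was not tested.

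Replicate numbers do not pair the samples: same-numbered LLC libraries correlated at -0.213 to 0.058 in their deviations, and 0 of 5 day 7 libraries correlated best with its own number. With a replicate block the calls were 0 in LLC (1555 at an unadjusted p under 0.05), 1798 in PBS and 131 for the difference. Otop1 and Ucp1 kept differences of -2.37 and -3.62 in the paired test, with exact p = 0.0625, the smallest that 5 pairs allow. On leaving out each library the permutation test gave exact p = 0.0159, the smallest possible, each time. Groups that do not overlap must give these smallest values, so they add nothing beyond the lack of overlap. Of 85 named genes 84 never changed direction, and the Cdc20 log2 fold change in LLC ran from -0.67 (without day 21 library 1) to 1.61 on leaving out each library and was -0.83 without libraries 1 and 3. Most of the 85 were named for a small p in these same libraries. That choice favours a stable direction, so the count of 84 is no independent support. Medians of 24 of 48 lists kept their sign under all 21 alternatives.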

Other observations

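Other letters were counted in the same promoter windows. CACGTG, the E-box bound by sterol and clock factors, occurred in 4 of 17 cholesterol synthesis promoters (23.5%) and 5 of 17 circadian clock promoters (29.4%), against 11.4% of tested genes. Among genes whose LLC groups did not overlap it occurred in 33 of 188 that were higher at day 21 (17.6%) and 18 of 172 that were lower (10.5%). These shares are descriptions and no test was made of them.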
